A study of Mus musculus with 30 samples.

Results

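Zic genes encode zinc-finger transcription factors related to the Gli proteins. The 4 described here, Zic1, Zic2, Zic4 and Zic5, were taken by name from a table of 54134 gene rows. Of these 4, 3 passed a filter on low counts, together with 12149 genes in all, and Zic4 did not. RNA was measured in 30 libraries of mouse embryonic stem cells (ESCs) differentiated towards neuromesodermal progenitors (NMPs), the bipotent cells that supply the spinal cord and the paraxial mesoderm of the elongating body axis. The 10 groups were wildtype and Nr6a1-/- cells at 5 stages, with 3 replicates in each group.

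All cells came from the Bruce4 ESC line, grown on fibroblast feeders and then depleted of them. They were plated in ES medium, which was changed to N2B27 medium with FGF2 when differentiation began. Cells at d2 had received FGF2 for 48 h. Cells at d2.5 and d3 had then received the Wnt pathway agonist CHIR99021 (CHIR) for 12 h and 24 h. From d3, cells were held for another 24 h in the same condition (d4) or given Gdf11, a TGF-beta family ligand of the trunk-to-tail transition (d4G). The Nr6a1-/- cells were 1 CRISPR/Cas9 clone with a different deletion on each allele, both within the exon that encodes part of the DNA-binding domain, so the genotype and the clone cannot be told apart. Nr6a1 encodes an orphan nuclear receptor. Reads were taken from the 3′ ends of transcripts and so did not test the deletion. Nr6a1 was counted at 18.8 to 314 CPM (counts scaled to a common library size) in Nr6a1-/- libraries against 17.2 to 186 in wildtype. By stage it was higher in Nr6a1-/- at d3 (256 to 314 CPM against 167 to 186) and d4 (189 to 255 against 96.7 to 99.5). At d4G the ranges overlapped (18.8 to 37.7 CPM against 17.2 to 19.1).

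In the mouse embryo, Zic2 and Zic5 are expressed in the epiblast and the early neural plate, whereas Zic1 and Zic4 are associated with the dorsal neural tube and, for Zic1, the dorsal somite. Loss of Zic2 impairs forebrain midline development and neural tube closure, and joint loss of Zic1 and Zic4 impairs the cerebellum. Zic proteins bind DNA through zinc fingers like those of Gli proteins, the effectors of Hedgehog signalling.

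The 4 genes lie in 2 pairs, with the members of a pair on opposite strands. In the GRCm38 annotation (GENCODE M21), Zic1 occupies chr9:91358058-91365810 on the minus strand and Zic4 occupies chr9:91362413-91389348 on the plus strand, so that their spans overlap by 3398 bases. The overlap begins 4355 bases from the 3′ end of Zic1. Zic5 occupies chr14:122456795-122465677 on the minus strand and Zic2 occupies chr14:122475435-122479852 on the plus strand, with 9758 bases between their start sites. The bases searched before the RefSeq start of Zic4, chr9:91368722-91368921, lie beyond the end of Zic1, so the overlap depends on the annotation. Which annotation was counted and whether strand was used are not stated, so counts of Zic1 and Zic4 within the overlap are uncertain.

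The promoters of Zic1 and Zic5 are shown because these genes differed between genotypes in opposite directions. Each sequence covers positions −250 to −51 from the RefSeq start site (GRCm38.p6), which overlap no annotated exon, and is written 5′ to 3′ on the strand of the gene. The capitals mark CCAAT boxes in Zic1 and, in Zic5, the reverse complement of AGGTCA, the half-site that Nr6a1 binds as a repeat.

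Zic1, chr9:91365819-91366018, minus strand: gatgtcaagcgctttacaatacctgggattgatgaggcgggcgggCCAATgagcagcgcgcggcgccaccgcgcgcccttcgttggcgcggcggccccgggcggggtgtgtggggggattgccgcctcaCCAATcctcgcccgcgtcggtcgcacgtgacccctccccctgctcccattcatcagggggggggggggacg

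Zic5, chr14:122465709-122465908, minus strand: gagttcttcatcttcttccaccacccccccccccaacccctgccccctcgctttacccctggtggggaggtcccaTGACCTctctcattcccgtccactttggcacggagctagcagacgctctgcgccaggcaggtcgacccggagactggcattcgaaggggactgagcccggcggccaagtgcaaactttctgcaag

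RefSeq promoters were found for 3 of the 4 genes, Zic1, Zic4 and Zic5, and each window searched ran from −250 to 50 bases around the start. The Zic1 promoter held CCAAT at positions −205 and −121, and 37.4% of 32544 mouse promoters searched the same way, on both strands, held at least 1. The Zic5 promoter held AGGTCA on the opposite strand at position −175, as 16.2% of promoters did on either strand. Neither TCAAGGTCA, an extended half-site that contains AGGTCA (0.412% of promoters), nor CTTTGAT, a TCF/LEF motif (3.73%), was found in the 3 windows. The 200 bases of Zic1 were 71.5% G and C with a CpG observed-over-expected ratio of 0.943, those of Zic5 were 63.0% with 0.53, and the medians over all windows were 51.5% and 0.359.

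Total counts per library ranged from 1570714 to 3688197, and a count of 0 allows a level of 3 counts, which was between 0.813 and 1.91 CPM. CPM were scaled by TMM, and since reads came from 3′ ends and were not set against gene length, levels are compared between samples and not between genes. Differences were tested by edgeR's quasi-likelihood test over all 12149 genes and called at a false discovery rate (FDR, Benjamini-Hochberg) below 0.05. The p-values measure only the spread between these samples, because the labels do not say whether replicates were separate cultures. In bulk samples, fewer cells of a type and less RNA per cell cannot be told apart.

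1 library stood apart. Replicate 2 of the d4 wildtype group held a summed 209 CPM of 5 epiblast-like markers (Fgf5, Otx2, Pou5f1, Pou3f1 and Utf1) against 22.2 and 11.1 in replicates 1 and 3, and 10.2 to 16.5 in d4 Nr6a1-/- libraries, where Otx2 had no count. At d2 the same sum was 937 to 1220 CPM over both genotypes. Where leaving it out changed a call of a Zic gene or a count of listed genes, both values are given, and leaving it out of comparisons that do not use d4 wildtype was added after the values were seen. Without it, 12033 genes passed the filter. Of 6 markers of NMPs, all had counts in every group, and the summed medians at d3 were 771 CPM (wildtype) and 1050 CPM (Nr6a1-/-). Of 6 endoderm markers, the sum was 15.5 to 79.6 CPM over all wildtype libraries and 0.749 to 9.19 over all Nr6a1-/- libraries, with Cer1 at 0 in every group and Ttr also at 0 in d4 Nr6a1-/-. This difference moved with the genotype comparisons below, and its part in them was not tested. The 6 naive ESC markers included Nanog, which is also in the epiblast list below. Prdm14 had no count in d2 wildtype, d3 Nr6a1-/- and both d4G groups. The sum of the 6 was 18.6 to 177 CPM over all libraries. In Nr6a1-/- it was lower at d3 (33.7 to 38.9 CPM against 74.3 to 89.6) and d4 (18.6 to 25.6 against 49.7 to 60.9). It was also lower at d2 and d2.5, and higher at d4G (147 to 177 against 101 to 124). Of 6 feeder fibroblast markers the sum was 9.56 to 65.9 CPM, with Lum at 0 in 9 of 10 groups. At d2 it was 24.5 to 28.5 CPM in Nr6a1-/- against 9.56 to 16.5 in wildtype. The part of these differences in the comparisons below was not tested.

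Zic2 and Zic5 were at their highest in epiblast-like d2 cells and fell after CHIR was added, whereas Zic1 was near its detection limit at d2 and rose. The levels in each library are plotted by stage and genotype.

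**Figure D1:**
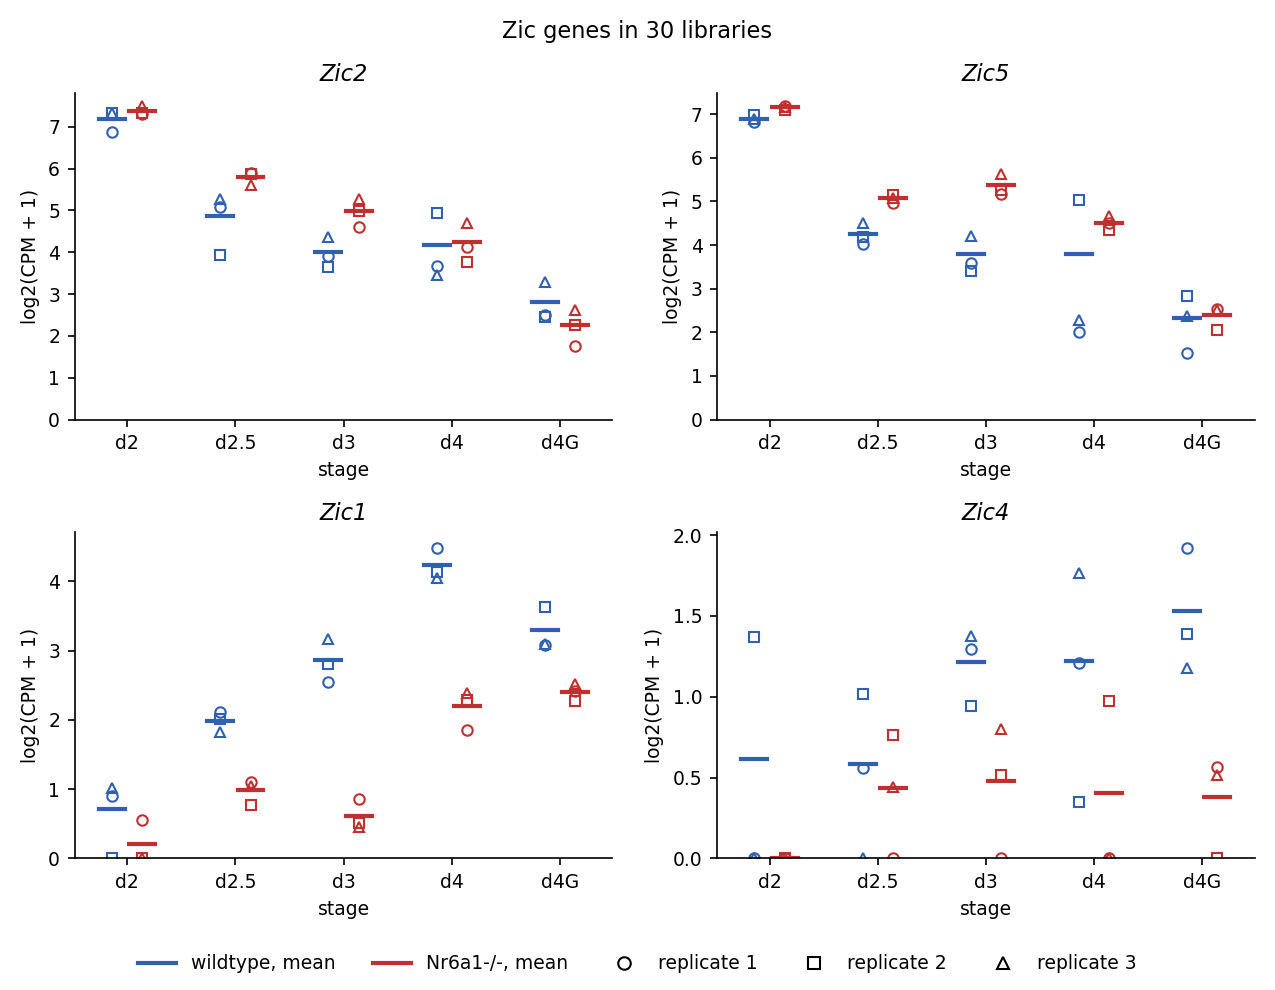
Level of Zic2, Zic5, Zic1 and Zic4 as log2(CPM + 1) in each of the 30 libraries, by stage (x axis), with wildtype in blue, Nr6a1-/- in red, a marker shape for each replicate and a bar at the group mean CPM. Zic2 and Zic5 start at 112 CPM or more at d2 in every library and decline, Zic1 rises to 15.6 to 21.4 CPM in d4 wildtype libraries, and replicate 2 of d4 wildtype lies above the other 2 for Zic2 and Zic5.

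Zic2, a neural plate and epiblast regulator, stood at 117, 160 and 159 CPM in the d2 wildtype replicates and at 156, 161 and 181 CPM in d2 Nr6a1-/-. At d2.5 it stood at 32.9, 14.2 and 37.9 CPM in wildtype and at 58.7, 57.1 and 47.6 CPM in Nr6a1-/-. The 2 genotypes overlapped at d2 and did not at d2.5, where every Nr6a1-/- library was above every wildtype library. Overlap of 3 against 3 libraries is a description here and below. The share of all genes without overlap was not counted. At d3 the values were 14.0, 11.5 and 19.6 CPM in wildtype and 23.3, 30.8 and 37.9 CPM in Nr6a1-/-, again without overlap. At d4 they were 11.8, 29.6 and 9.91 CPM in wildtype and 16.5, 12.6 and 25.1 CPM in Nr6a1-/-, and at d4G 4.65, 4.47 and 8.85 CPM and 2.4, 3.82 and 5.15 CPM. The genotypes overlapped at both of these last stages, with d4 wildtype replicate 2 as the highest of the 6 libraries at d4.

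Zic5, the partner of Zic2 on chromosome 14, stood at 112, 125 and 118 CPM in d2 wildtype and at 145, 136 and 143 CPM in d2 Nr6a1-/-. At d2.5 it stood at 15.2, 17.3 and 21.8 CPM in wildtype and at 30.3, 34.7 and 32.6 CPM in Nr6a1-/-. The genotypes did not overlap at either stage, though neither difference was called in the fit of all libraries (FDR 0.644 and 0.162, edgeR). At d3 the values were 11.1, 9.67 and 17.6 CPM in wildtype and 34.9, 37.6 and 48.7 CPM in Nr6a1-/-, with every Nr6a1-/- library above every wildtype library. At d4 they were 3.05, 31.8 and 3.9 CPM in wildtype and 21.7, 19.4 and 24.3 CPM in Nr6a1-/-. Wildtype replicates 1 and 3 were thus below all Nr6a1-/- libraries and replicate 2 above all of them. At d4G the genotypes overlapped, at 1.86, 6.09 and 4.22 CPM in wildtype and 4.81, 3.18 and 4.72 CPM in Nr6a1-/-.

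Zic1, a regulator of dorsal neural progenitors, had 2, 0 and 3 counts in d2 wildtype libraries and 1, 0 and 0 in d2 Nr6a1-/-, at or near the limit that a count of 0 allows. At d2.5 it stood at 3.33, 3.05 and 2.53 CPM in wildtype and at 1.15, 0.7 and 1.07 CPM in Nr6a1-/-. At d3 the values were 4.83, 5.98 and 8.0 CPM in wildtype and 0.803, 0.428 and 0.372 CPM in Nr6a1-/-, which came from 4 counts over the 3 Nr6a1-/- libraries. From d2.5 onwards every wildtype library was above every Nr6a1-/- library of its stage. At d4 Zic1 stood at 21.4, 16.6 and 15.6 CPM in wildtype and at 2.6, 3.87 and 4.26 CPM in Nr6a1-/-, and at d4G at 7.44, 11.4 and 7.59 CPM and 4.33, 3.82 and 4.72 CPM. Replicate 2 of d4 wildtype did not stand apart for this gene.

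Zic4, the partner of Zic1 on chromosome 9, had at most 8 counts in any library and was not tested. It had 3, 3, 9, 12 and 13 counts over the 3 wildtype libraries at d2, d2.5, d3, d4 and d4G, and 0, 3, 3, 2 and 2 counts in Nr6a1-/-. Its highest level was 2.79 CPM, in d4G wildtype replicate 1, and it had no count in 8 of the 15 Nr6a1-/- libraries and 3 of the 15 wildtype libraries. Over all stages it had 40 counts in wildtype and 10 in Nr6a1-/-, a ratio of 0.251 per effective library size (Nr6a1-/- over wildtype, exact 95% interval 0.112 to 0.511), which covers counting error only. By stage the ratio was 0.732 at d2.5 (0.098 to 5.46), 0.299 at d3 (0.0521 to 1.2), 0.229 at d4 (0.0249 to 1.03) and 0.18 at d4G (0.0197 to 0.794), and the interval left out equal levels at d4G alone. The 2 genotypes did not overlap at d3 and d4G and overlapped at the other 3 stages.

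The first question was whether the genotypes differed at each stage. Zic1 was lower in Nr6a1-/- cells at d3 and d4, and at d4G by a call that most alternatives lost. It met the filter on low counts only in wildtype groups (d3, d4 and d4G), where it was higher. The entry of Zic1 into testing therefore depended on that genotype. Zic2 was higher at d2.5 and d3, by calls that several alternatives lost. Zic5 was higher at d3. In a minority of alternatives it was called higher at d2.5 and d4 too, among them the fit without the d4 wildtype library that stood apart. At d2, 0 of the 3 tested Zic genes were called, where 4.07% of all tested genes were, the unadjusted p was 0.328 for Zic2, 0.281 for Zic5 and 0.0778 for Zic1, and DESeq2 called 0 as well. The log2 fold changes were 0.19 for Zic2 (95% interval −0.19 to 0.58), 0.26 for Zic5 (−0.2 to 0.71) and −2.02 for Zic1 (−4.04 to 0.01), Nr6a1-/- over wildtype.

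At d2.5, 1 of 3 was called, where 6.45% of all tested genes were. Zic2 was 1.91-fold higher in Nr6a1-/- cells, a log2 fold change of 0.94 (SE 0.262, FDR 0.0234, edgeR), and its FDR was 0.204 without wildtype replicate 2, 0.0819 and 0.068 without Nr6a1-/- replicates 1 and 2, and 0.129 with DESeq2. Zic5 stood 1.8-fold higher at an FDR of 0.162. All groups share 1 estimate of the spread, and without the d4 wildtype library that stood apart the SE of Zic5 went from 0.353 to 0.181. Zic5 was then called at d2.5 with a similar difference, 0.84 (FDR 0.00224, edgeR), where 6.71% of all genes were called. It was also called with only the groups compared (0.83, FDR 0.00755) and without the filter (0.88, FDR 0.000311). The share of all genes called in these fits was not counted, and 10 of 13 alternatives did not call Zic5. Zic1 stood at −1.57 (SE 0.527, FDR 0.072).

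At d3, 3 of 3 were called, where 10.8% of all tested genes were. Zic5 was 3.11-fold higher in Nr6a1-/- cells, 1.64 on the log2 scale (SE 0.36, FDR 0.00187, edgeR), and was called in every alternative fit. Zic2 was 2.02-fold higher, 1.01 (SE 0.313, FDR 0.0305), and lost its call in 5 of 13 alternatives, with an FDR of 0.0954 and 0.135 without wildtype replicates 1 and 2, 0.0628 and 0.145 without Nr6a1-/- replicates 2 and 3, and 0.0812 with DESeq2. Zic1 was lower by a log2 fold change of −3.45 (SE 0.509, FDR 7.81e-06), from 4 counts against 43, and was called in every alternative. The ratio of its pooled counts was 0.0834, with an exact 95% interval of 0.0218 to 0.23 for counting error.

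At d4, 1 of 3 was called, where 18.9% of all tested genes were. Zic1 was 4.88-fold lower in Nr6a1-/- cells, −2.29 (SE 0.29, FDR 1.61e-07, edgeR), from 24 counts against 161, and was called in every alternative. Zic2 and Zic5 did not pass, at 0.04 (FDR 0.953) and 0.62 (FDR 0.265). Without the library that stood apart, the mean level in wildtype was 3.48 CPM for Zic5 and 10.8 CPM for Zic2. Zic5 was then higher in Nr6a1-/- cells by 2.59 (SE 0.293, FDR 1.58e-08, edgeR), where 15.1% of all genes were called, and Zic2 stood at 0.75 (FDR 0.128). With all libraries kept and no filter, Zic5 was called at 0.61 (FDR 0.0328), and in 10 of 12 alternatives it was not called. The share of all genes called without the filter was not counted.

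**Figure D2:**
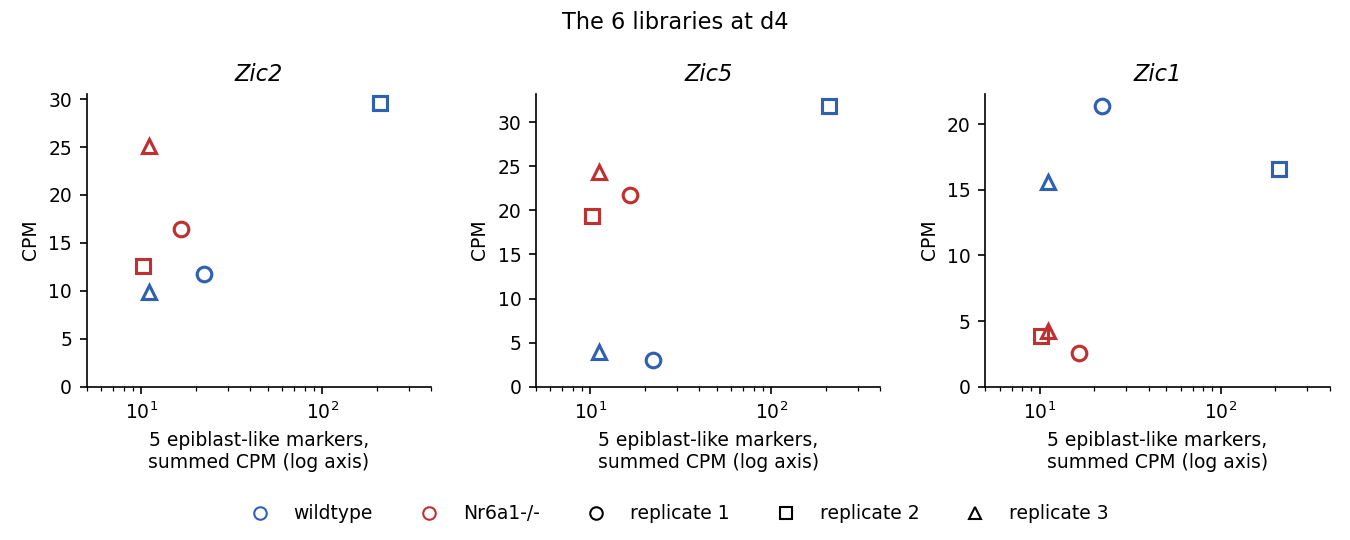
Level of Zic2, Zic5 and Zic1 (CPM, y axis) against the summed CPM of 5 epiblast-like markers (x axis, log scale) in the 6 libraries at d4, with wildtype in blue, Nr6a1-/- in red and a marker shape for each replicate. Wildtype replicate 2, at 209 CPM of the markers, has the highest Zic2 and Zic5 of the 6 libraries, and its Zic1 lies between those of the other 2 wildtype libraries.

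The plot of the 6 libraries at d4 sets each gene against the epiblast-like markers. In wildtype replicate 2 these markers were high together with Zic2 and Zic5 and not with Zic1. Among the 3 Nr6a1-/- libraries, Zic5 stood at 19.4 to 24.3 CPM at marker sums of 10.2 to 16.5 CPM, while wildtype replicates 1 and 3, at 22.2 and 11.1 CPM of the markers, had 3.05 and 3.9 CPM. How much of the Zic2 and Zic5 RNA in wildtype replicate 2 came from cells with these markers was not tested.

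At d4G, 1 of 3 was called, where 7.9% of all tested genes were. Zic1 was 2.03-fold lower in Nr6a1-/- cells, −1.02 (SE 0.327, FDR 0.0463, edgeR), and lost the call in 11 of 13 alternatives, with FDR values over all 13 from 0.0467 to 0.248. Among these was the fit with the replicate block, −1.02 at an FDR of 0.0565. Leaving out any 1 of the 6 d4G libraries ended the call, with log2 fold changes of −1.13 to −0.8 and FDR values of 0.0506 to 0.248. Zic2 stood at −0.64 (95% interval −1.82 to 0.54) and Zic5 at 0.07 (−1.37 to 1.51).

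**Figure D3:**
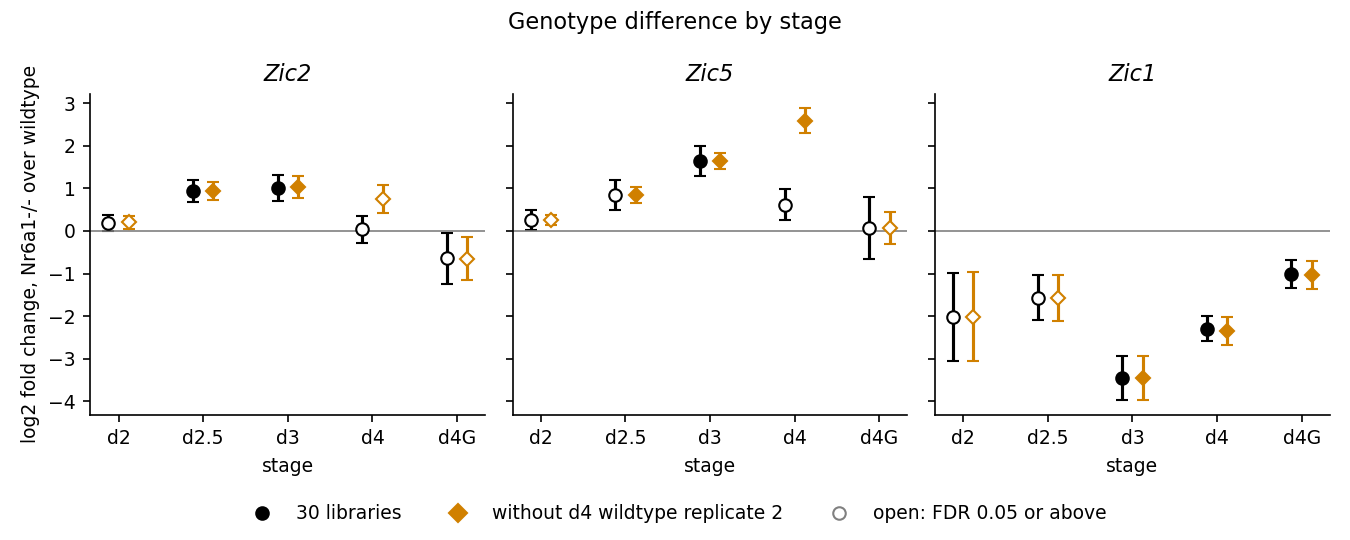
Log2 fold change of Nr6a1-/- over wildtype (y axis, bars are SE) for Zic2, Zic5 and Zic1 at each stage (x axis), from all 30 libraries (black circles) and without d4 wildtype replicate 2 (orange diamonds), filled where the FDR was below 0.05. The 2 fits lie together except at d4, where Zic5 moves from 0.62 to 2.59 and Zic2 from 0.04 to 0.75.

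The second question was how the genes changed as cells moved through the protocol. In the first 12 h of CHIR, 3 of 3 were called in wildtype cells, where 25.4% of all genes were, and 2 of 3 in Nr6a1-/- cells, where 24.1% were. Zic5 fell 6.53-fold in wildtype, −2.71 (SE 0.31, FDR 1.85e-08, edgeR), and 4.33-fold in Nr6a1-/-, −2.11 (SE 0.264, FDR 9.44e-08). Zic2 fell 5.11-fold in wildtype, −2.35 (SE 0.243, FDR 1.93e-09), and 3.05-fold in Nr6a1-/-, −1.61 (SE 0.211, FDR 2.4e-07). These 4 calls held in every alternative. Zic1 rose in wildtype from 5 to 18 counts, 2.0 (SE 0.586, FDR 0.0102), a call lost without d2 wildtype replicate 2, which had no count (1.57, FDR 0.0627), and with libraries thinned to equal depth (1.54, FDR 0.178). In Nr6a1-/- it went from 1 to 8 counts, 2.45 (FDR 0.0708), and 4.29 (FDR 0.0309) without d2 replicate 1, the only d2 Nr6a1-/- library with a count.

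Between 12 h and 24 h of CHIR, 0 of 3 were called in wildtype, where 11.5% of all genes were, and the unadjusted p was 0.00692 for Zic1, 0.00945 for Zic2 and 0.275 for Zic5. DESeq2 also called none. The values were 1.08 for Zic1 (FDR 0.0569), −0.9 for Zic2 (FDR 0.0703) and −0.47 for Zic5 (FDR 0.542). Leaving out d3 wildtype replicate 1 brought Zic1 under the threshold (FDR 0.0455), and leaving out d2.5 wildtype replicate 2 (FDR 0.0108) or d4 wildtype replicate 2 (FDR 0.0239) did so for Zic2. In Nr6a1-/- cells, 1 of 3 was called, where 15.9% of all genes were. Zic2 fell further, −0.82 (SE 0.249, FDR 0.0195, edgeR), which did not pass without d2.5 replicate 1 (FDR 0.0729) or 2 (0.0576), without d3 replicate 1 (0.119) or 2 (0.0562), or with DESeq2 (0.12). Zic5 stood at 0.32 (95% interval −0.26 to 0.9) and Zic1 at −0.81 (−2.24 to 0.63).

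From d3 to d4, 1 of 3 was called in wildtype, where 21.1% of all genes were, and 2 of 3 in Nr6a1-/- cells, where 25.9% were. Zic1 rose in both genotypes, 2.76-fold in wildtype, 1.47 (SE 0.259, FDR 5.35e-05, edgeR), and 6.2-fold in Nr6a1-/-, 2.63 (SE 0.576, FDR 0.000623), from 4 to 24 counts. Both calls held in every alternative. In Nr6a1-/- cells Zic5 fell 1.86-fold, −0.89 (SE 0.327, FDR 0.0407), which leaving out d3 replicate 2 (FDR 0.0559) or 3 (0.149), or d4 replicate 1 (0.0758), 2 (0.11) or 3 (0.0657), took past the threshold, as did DESeq2 (0.202). Zic2 stood at −0.75 (FDR 0.0636), and passed without d3 Nr6a1-/- replicate 1 (FDR 0.0362), d4 Nr6a1-/- replicate 3 (0.0265) or d4 wildtype replicate 2 (0.0205). In wildtype Zic5 stood at 0.12 (FDR 0.873) and Zic2 at 0.22 (FDR 0.691). Without the library that stood apart, Zic5 fell in wildtype, −1.85 (SE 0.322, FDR 4.62e-05, edgeR), where 19.3% of all genes were called, and Zic2 stood at −0.5 (FDR 0.336).

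**Figure D4:**
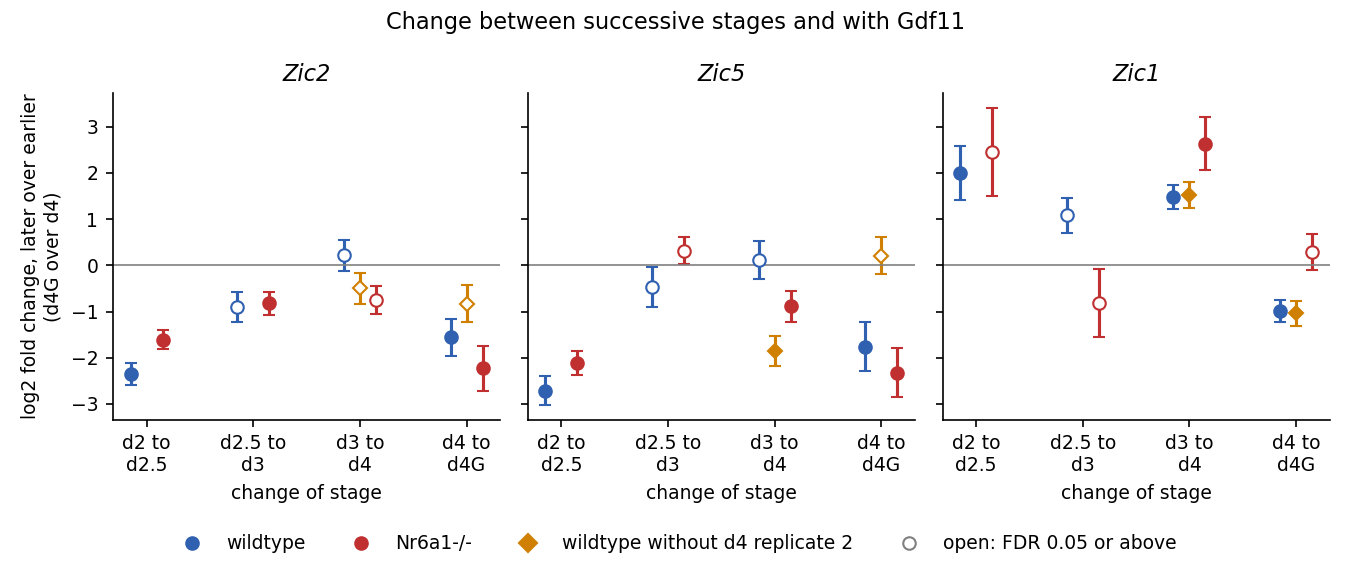
Log2 fold change of the later over the earlier stage, and of d4G over d4 (y axis, bars are SE), for Zic2, Zic5 and Zic1 in wildtype (blue) and Nr6a1-/- (red), with wildtype values without d4 replicate 2 as orange diamonds for the changes that use d4, filled where the FDR was below 0.05. Zic2 and Zic5 fall in the first 12 h of CHIR in both genotypes, and the wildtype values of Zic5 that use d4 change sign without d4 replicate 2.

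The third question was the response to Gdf11 over the last 24 h. In wildtype, 3 of 3 were called, where 28.8% of all genes were, and in Nr6a1-/- cells 2 of 3, where 18.0% were. Zic1 was 1.99-fold lower with Gdf11 in wildtype, −0.99 (SE 0.242, FDR 0.00194, edgeR), a call that held in every alternative, and stood at 0.28 in Nr6a1-/- (95% interval −0.49 to 1.04). In Nr6a1-/- cells Zic2 was 4.7-fold lower with Gdf11, −2.23 (SE 0.482, FDR 0.000774), and Zic5 was 4.98-fold lower, −2.32 (SE 0.525, FDR 0.00133), and both calls held in every alternative. In wildtype Zic2 was 2.94-fold lower, −1.56 (SE 0.401, FDR 0.00317), and Zic5 3.39-fold lower, −1.76 (SE 0.526, FDR 0.0103), but both calls were lost without the d4 library that stood apart. Zic2 was then at −0.83 (FDR 0.139) and Zic5 at 0.21 (FDR 0.756), where 23.4% of all genes were called. The Zic5 call in wildtype was also lost without d4G wildtype replicate 1 (−1.44, FDR 0.0574) and with only the 2 groups compared in the fit (−1.75, FDR 0.114).

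The genotypes were then compared in their changes. For the Gdf11 response, 0 of 3 Zic genes were called, where 2.66% of all genes were. The differences, Nr6a1-/- minus wildtype, were 1.27 for Zic1 (SE 0.464, unadjusted p 0.00976, FDR 0.152, edgeR), −0.68 for Zic2 (p 0.329, FDR 0.717) and −0.56 for Zic5 (p 0.507, FDR 0.83). Without the d4 wildtype library that stood apart, the difference for Zic5 was −2.53 (SE 0.498, FDR 0.00173), where 2.34% of all genes were called. For the change from d2 to d3, 0 of 3 were called, where 2.27% of all genes were, at 1.38 for Zic5 (SE 0.434, p 0.00297, FDR 0.0856), 0.82 for Zic2 (p 0.0333, FDR 0.313) and −1.44 for Zic1 (p 0.523, FDR 0.845). Zic5 passed this test without that library, 1.38 (SE 0.221, FDR 0.000133), where 2.53% of all genes were called. It also passed with only the groups compared (1.39, FDR 9.07e-05) and without the filter (1.4, FDR 1.06e-06), fits for which that share was not counted. In 16 of 19 alternatives it did not pass. For the change from d3 to d4, 0 of 3 were called, where 5.72% of all genes were, at −1.02 for Zic5 (p 0.0614, FDR 0.282), −0.98 for Zic2 (p 0.0365, FDR 0.215) and 1.17 for Zic1 (p 0.0855, FDR 0.333). Zic5 stood at 0.94 (FDR 0.16) without d4 wildtype replicate 2 and at −1.51 (FDR 0.0358) without replicate 3. DESeq2 called no Zic gene in these 3 tests.

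The share of Zic5 in the summed counts of Zic2 and Zic5 describes how the pair moved together. It was 44.7% in d2 wildtype (exact binomial 95% interval 42.4 to 47.0) and 45.8% in d2 Nr6a1-/- (43.7 to 47.9). At d2.5 it was 38.8% in wildtype (33.1 to 44.8) and 37.5% in Nr6a1-/- (33.9 to 41.1), and the libraries of the genotypes overlapped. At d3 it was 46.1% in wildtype (38.9 to 53.4) and 56.9% in Nr6a1-/- (52.6 to 61.1), and no Nr6a1-/- library, at 55.0 to 60.0%, overlapped the wildtype libraries, at 44.2 to 47.3%. At d4 it was 44.7% in wildtype, from libraries of 20.6 to 51.8%, 25.0% without replicate 2 (16.0 to 35.9) and 54.4% in Nr6a1-/- (48.3 to 60.5). At d4G it was 40.8% in wildtype (29.3 to 53.2) and 53.1% in Nr6a1-/- (38.3 to 67.5), with overlapping libraries. The intervals cover counting error only, and the shares were not tested between genotypes.

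Among genes near the pairs, 2610035F20Rik, a non-coding transcript on the minus strand whose start lies 236 bases from that of Zic2, differed at d2. It stood at 2.45 ± 0.932 CPM in d2 wildtype and 9.85 ± 2.33 CPM in d2 Nr6a1-/- (SD, n = 3 each), 3.98-fold higher, 1.99 on the log2 scale (SE 0.499, FDR 0.015, edgeR). It fell in the first 12 h of CHIR in Nr6a1-/- cells, −2.14 (SE 0.489, FDR 0.00136). It passed the filter on low counts through d2 Nr6a1-/- alone, its highest group. Its entry into testing depended on that group, on which both of these differences rest. It had no count in any d4G library, and against 1.21 CPM in d4 wildtype it was called lower with Gdf11 (FDR 0.0236), but not without the d4 library that stood apart (FDR 0.27). Farther from Zic2, Gm10837, Pcca and Clybl were also tested. Gm10837 and Pcca were not called in any comparison, and Clybl, whose span ends 54561 bases from Zic5, was higher in Nr6a1-/- cells at d4 (0.7, SE 0.158, FDR 0.00133) and fell in wildtype from d3 to d4 (−0.8, FDR 0.000209). Without the library that stood apart these values were 0.56 (FDR 0.0235) and −0.67 (FDR 0.00452).

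The profiles over the 10 group means, as log2(CPM + 1), were compared with those of other tested genes with at least 10 CPM in 1 group. Zic2 and Zic5 had a Pearson r of 0.975 with each other, and Zic1 had −0.751 with Zic2 and −0.802 with Zic5. The 3 genes most like Zic2 were Hmgn5 (0.992), Tprgl (0.986) and Slc7a3 (0.985), and those most like Zic5 were Ctbp2 (0.987), Zcchc10 (0.984) and Zic2. Those most like Zic1 were Zbtb16 (0.953), a transcription factor of the zinc-finger class, Wdr83os (0.944) and Srp72 (0.944). The order for Zic1 was not stable, since with a pseudocount of 0.5 Arl2bp and Srp72 (0.948 each) came before Zbtb16 (0.944), and without d4 wildtype replicate 2 Srp72 came first (0.952). These are descriptions over n = 10 means that share libraries and depth, and without d4 wildtype replicate 2 none of the 3 genes given for Zic5 was among its closest 3, though their r stayed at 0.933 to 0.969.

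Related genes were read from lists in the same fit, none of which holds a Zic gene. Of 19 Gli and Hedgehog genes, 10 were tested, and at d4, 4 were higher and 1 lower in Nr6a1-/- cells (median 0.33 against 0.018 over all genes), where 18.9% of all genes were called. Without the d4 library that stood apart 3 of 9 were higher and 0 lower, where 15.1% of all genes were called. Among them were Smo, the Hedgehog signal transducer (30.2 against 17.2 CPM, 0.8, FDR 0.00238), and Gas1, a Hedgehog co-receptor (21.1 against 12.5 CPM, 0.75, FDR 0.0376). Without that library Smo stood at 0.86 (FDR 0.00566) and Gas1 lost its call, at 0.84 (FDR 0.0515). At d2, d2.5 and d3, 0 of these 10 genes were called between genotypes, with medians of −0.09, −0.07 and 0.11. Of all genes 4.07%, 6.45% and 10.8% were called at these stages. At d4G 1 was lower, where 7.9% of all genes were called. Without the library that stood apart, the gene lower at d4 and d4G did not pass the filter, which left 9 tested. Gli2 and Gli3, Hedgehog effectors, rose in the first 12 h of CHIR in wildtype (1.03, FDR 0.00628, and 0.69, FDR 0.00225) and in Nr6a1-/- cells (1.37, FDR 0.000459, and 0.78, FDR 0.000373), where Zic2 and Zic5 fell.

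Of 19 dorsal neural and neural crest genes, 10 were tested. At d3, 1 was higher and 4 were lower in Nr6a1-/- cells (median −0.38), and at d4, 2 were higher and 4 lower (median −1.37), where Zic1 was lower at both stages. Over all genes 10.8% were called at d3 (median 0.002) and 18.9% at d4 (median 0.018). Pax3, Msx1, Msx2 and Bmp4 made up the 4 lower genes at both stages and were named after their values were seen. Msx1, a dorsal neural tube transcription factor, stood at 10.5 CPM in d4 Nr6a1-/- against 50.2 in wildtype (−2.24, FDR 7.1e-10). Gbx2, a posterior neural regulator, was higher in Nr6a1-/- at d3 (127 against 53.7 CPM, 1.24, FDR 6.67e-09) and at d4 (128 against 79.2 CPM, 0.7, FDR 3.34e-05). Without the d4 library that stood apart, 1 was higher and 3 were lower at d4 (median −0.44), where 15.1% of all genes were called. Msx1 then stood at −2.36 (FDR 1.48e-09) and Gbx2 at 0.59 (FDR 0.00126), while Bmp4 lost its call (−2.33, FDR 0.0525).

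Of 25 neural progenitor genes, 17 were tested. At d3, 3 were higher and 3 lower in Nr6a1-/- cells (median −0.08), and at d4, 5 were higher and 4 lower (median −0.2), or 3 and 2 without the library that stood apart (median −0.06). The shares of all genes called were 10.8% at d3, 18.9% at d4 and 15.1% at d4 without that library. Fabp7, a radial glial fatty acid binding protein, was higher at d4 (84.3 against 4.25 CPM, 4.24, FDR 7.21e-17), and Irx3, a neural tube transcription factor, was lower (0.912 against 13.8 CPM, −3.85, FDR 5.01e-09). Without that library they stood at 4.17 (FDR 1.32e-14) and −3.91 (FDR 2.17e-08). With Gdf11, 7 fell and 2 rose in wildtype (median −1.07), where 28.8% of all genes were called, or 5 and 2 without the library that stood apart (median −0.89), where 23.4% were. In Nr6a1-/- 8 fell and 1 rose (median −0.85), where 18.0% of all genes were called. Sox2, a core neural and NMP factor, fell in both, −1.27 in wildtype (FDR 4.5e-07), or −1.05 without that library (FDR 1.94e-05), and −2.51 in Nr6a1-/- (FDR 1.09e-10).

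Of 20 epiblast genes, all tested, 12 fell and 6 rose in the first 12 h of CHIR in wildtype (median −0.75), and 10 fell and 5 rose in Nr6a1-/- (median −0.55), where Zic2 and Zic5 fell. Of all genes 25.4% were called in wildtype and 24.1% in Nr6a1-/-. Otx2, an epiblast and anterior neural factor, fell from 50.4 to 1.99 CPM in wildtype and from 84.8 to 2.53 CPM in Nr6a1-/-. At d3, 3 were higher in Nr6a1-/- cells and 0 lower (median 0.23), where 10.8% of all genes were called. Among the 3 was Pou5f1, a pluripotency factor (20.7 against 7.05 CPM, 1.56, FDR 9.74e-05). Without the d4 library that stood apart 5 were higher at d3, and the share of all genes called in that fit was not counted. At d4, 3 were higher and 7 lower (median −0.54), where 18.9% of all genes were called, but 3 higher and 1 lower without the library that stood apart (median −0.06), where 15.1% were.

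Of 22 paraxial mesoderm genes, 14 were tested, and in Nr6a1-/- cells, 6 were higher (7 without the d4 library that stood apart) and 0 lower at d3 (median 0.62), with 12 higher and 0 lower at d4 (median 1.01), or 9 and 0 without the library that stood apart (median 0.86). The shares of all genes called were 10.8% at d3, 18.9% at d4 and 15.1% at d4 without that library. The share at d3 without it was not counted. Meox1, a somite factor, stood at 201 CPM against 4.05 at d4 (5.67, FDR 3.6e-20), and Aldh1a2, a retinoic acid synthesis enzyme, at 376 against 12.0 CPM (4.96, FDR 1.22e-22). Without that library they stood at 5.52 (FDR 7.72e-18) and 4.9 (FDR 2.74e-20). With Gdf11, 10 fell and 1 rose in wildtype (median −0.95), where 28.8% of all genes were called, or 9 and 1 without that library (median −1.12), where 23.4% were. In Nr6a1-/- 11 fell and 0 rose (median −1.09), where 18.0% of all genes were called. Hes7, a segmentation clock gene, fell in both, −3.53 in wildtype, or −3.68 without that library, and −3.4 in Nr6a1-/-.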

How the data were processed

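The authors primed cDNA at the poly(A) tail with indexed oligonucleotides that carry molecular identifiers, and aligned reads with STAR (mm10, per the submitters' processing notes). Which annotation and counter were used, and whether strand or identifiers entered the counting, are not given in the sources used here. The deposited counts are raw whole numbers, 1 column for each replicate. All 30 columns were matched to a library by name, and 0 were left unmatched. The authors' tables per stage, which hold their log2 fold changes, p-values, FDR, counts and CPM, were not used.

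Counts were fitted with edgeR 4.0.16 (R 4.3.3) as 10 groups, with TMM scaling and the quasi-likelihood F test (2-sided). A gene was kept if 2 libraries of any 1 group had over 10 counts and over 2 CPM, after the filter of the study. The 16 comparisons were adjusted separately by Benjamini-Hochberg over 12149 genes. Alternatives were RLE factors, no filter, DESeq2 1.42.0 (Wald test), only the groups compared, a replicate block, thinning to the smallest library and leaving out each library. The fitting code was tested on simulated data with 200 changed genes.

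The members and lists were chosen with earlier results of these data known. Of each list, up to 3 called genes with the largest change and at least 10 CPM in 1 group were named per comparison. For profiles, the 3 genes with the highest r were named. Not every gene that these rules would name is reported. Replicates of a group differed by more than sampling noise (chi-square per gene 1.45 to 6.68 over 30 pairs). Counting intervals ignore amplified copies of a molecule and so cover counting error only.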

Additional observations from a re-analysis of the deposited data

How the results depend on the processing

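Of 655 values that alternatives gave for the 48 tests of Zic genes, 579 kept their direction and their side of the FDR threshold of 0.05, 36 kept their direction and lost the call, 25 kept it and gained one, and 15 changed direction. Whether replicate numbers paired the samples was not settled. Libraries with the same number had correlations of −0.114 to 0.17 in their deviations from group means. Of 30 libraries, 17 correlated best with their own number out of 3 numbers. The replicate block ended 1 call, Zic1 at d4G (−1.02, FDR 0.0565), leaving 0 Zic genes called there, and changed no other call. The count there was also 0 without the filter, thinned, with only the groups compared and with DESeq2, and 0 to 1 when a library was left out. The share of all genes called was counted for the fit of all libraries and, for some comparisons, without d4 wildtype replicate 2. For the other fits it was not counted. Changes in the counts given here therefore cannot be told from a change in calling over all genes. Zic genes called between genotypes were 2 without the filter, 2 with only the groups compared and 0 with DESeq2 at d2.5 (0 to 2 leaving out a library), and at d4 2 without the filter (1 to 2 leaving out a library). From d2.5 to d3 in wildtype they were 1 without the filter and 2 thinned (0 to 1 leaving out a library), and in Nr6a1-/- 0 with DESeq2 (0 to 1). From d3 to d4 they were 1 to 2 in wildtype and, in Nr6a1-/-, 1 with DESeq2 (1 to 3). For Gdf11 in wildtype they were 1 to 3 leaving out a library. For the difference between genotypes in the Gdf11 response they were 0 to 1 leaving out a library. In the change from d2 to d3 it was 2 without the filter and 1 with only the groups compared (0 to 1), and in the change from d3 to d4 2 without the filter (0 to 1). Leaving out 1 library gave either direction for Zic2 between genotypes at d4 (−0.29 to 0.75), Zic5 at d4G (−0.25 to 0.47), Zic2 (−0.5 to 0.54) and Zic5 (−1.85 to 0.61) from d3 to d4 in wildtype, and Zic5 with Gdf11 in wildtype (−2.24 to 0.21). It did so too when the genotypes were compared in how Zic1 changed from d2 to d3 (−1.95 to 0.42) and Zic5 from d3 to d4 (−1.51 to 0.94). Thinning turned Zic5 between genotypes at d4G (−0.28), Zic5 from d3 to d4 in wildtype (−0.09) and Zic1 with Gdf11 in Nr6a1-/- (−0.13). The cause of these changes was not tested. Of the 3 genes closest to Zic5, 0 remained among its closest 3 without d4 wildtype replicate 2. Depth limits Zic1 at d2 and Zic4 at every stage.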
